A study of Mus musculus with 8 samples.

Results

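Amino acids cross the plasma and lysosomal membranes through carriers of several solute carrier (Slc) gene families. The members described here were the protein-coding genes named Slc1a, Slc3a, Slc6a, Slc7a, Slc36a, Slc38a or Slc43a with a number. No measured value enters this name rule, but the families were picked with earlier results of these data known. There were 59 such genes among the 41128 in the deposited read count table, and 33 of them had enough counts to be tested.

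Some background helps to place them. The Slc3 proteins are heavy chains that carry Slc7 light chains to the cell surface, and the heavy chain made from Slc3a2 pairs with several light chains, among them the large neutral amino acid carrier made from Slc7a5. Slc1 proteins take up glutamate or small neutral amino acids, Slc38 proteins take up glutamine and other small neutral amino acids with sodium, Slc36 proteins move small amino acids with protons, the Slc43a1 and Slc43a2 proteins carry large neutral amino acids while that of Slc43a3 carries purine nucleobases, and the Slc6 family includes carriers of glycine, taurine and creatine. When amino acids run short, the transcription factor ATF4 is translated more and raises genes of amino acid synthesis and several of these carriers, and leucine and arginine that have entered feed the growth kinase complex mTORC1. Erythroid precursors need glycine as the starting material of haem, and the glycine carrier made from Slc6a9 is known to work in them.

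RNA was sequenced from mouse cells labelled haemogenic endothelium, the endothelial cells that give rise to the first blood cells, which were made by differentiating embryonic stem cells of strain C57BL/6. One line carried loxP-flanked Hdac1 alleles (Hdac1 lox/lox) and the other carried loxP-flanked Hdac2 alleles (Hdac2 lox/lox), the genes of histone deacetylases 1 and 2. Each line was given 4OHT (4-hydroxytamoxifen, which switches on tamoxifen-dependent Cre recombinases) or EtOH, its solvent, so the 8 libraries form 4 groups of 2. The series names deletion of Hdac1 or Hdac2 as its design, and the comparisons set 4OHT against solvent within each line. None of these groups received 4OHT without loxP-flanked alleles. The driver of a Cre, the deleted part of each gene, the number of clones behind each line and the length of treatment are not stated by the labels. No label says that replicates were separate cultures, so p-values measure only the spread between these libraries, which may be technical.

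Total counts ran from 10215792 to 19552380 per library, the members held 0.277 to 0.329% of them, and 3 counts were worth 0.15 to 0.287 CPM (read counts scaled to library size with TMM factors, the trimmed means that edgeR uses). CPM of Hdac2 was 165 and 151 in the EtOH libraries of its own line and 149 and 149 with 4OHT, and CPM of Hdac1 was 5.78 and 5.60 in the EtOH libraries of its line and 6.99 and 7.12 with 4OHT. In the Hdac2 line CPM of Hdac1 was 7.45 and 7.16 with EtOH and 5.12 and 4.00 with 4OHT. That log2 fold change was -0.68 (adjusted p = 0.0565 by edgeR). In the Hdac1 line CPM of Hdac2 was 148 and 142 with EtOH and 152 and 140 with 4OHT. Counts over a whole gene can still take in exons outside a deleted part, which was not tested, so these values check no label. All 12 endothelial markers were detected, with a summed 3127 to 8843 CPM per library. Pluripotency markers summed to 16.04 to 37.64 CPM, of which Klf4 alone held 13.2 to 36.05 CPM. Nanog had 0.0776 to 0.800 CPM. The Hdac1 line went against its labels in similarity: the root mean square log2 difference over the 33 tested members was 0.593 between EtOH replicate 1 and 4OHT replicate 2 and 0.557 between EtOH replicate 2 and 4OHT replicate 1, against 0.942 between the EtOH pair and 0.943 between the 4OHT pair. In the Hdac2 line the same measure was 0.432 within EtOH and 0.486 within 4OHT. CPM of the Y-linked gene Ddx3y was 25.8 to 45.7 in the Hdac1 line. In the Hdac2 line it was 0.324 and 4.58 with EtOH and 0.466 and 0.889 with 4OHT, which are 5, 48, 6 and 10 counts. The lines thus also differ in this respect, and EtOH replicate 2 stood above the other libraries of the Hdac2 line.

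Promoter sequence is shown here for 3 members, because carriers are among the genes that ATF4 is known to control through a composite C/EBP-ATF response element. The members were matched to RefSeq promoter windows (GRCm38.p6, the build also called mm10) from 250 bases before to 50 bases after the start, and 41 of the 59 members had at least 1 window. The letters TGATGNAA, searched on both strands, stood in 4 of 62 member windows (6.45%) and in 3.97% of all 32851 windows. They were found for Slc1a4, Slc7a11 and Slc7a7. The stretches below run from 100 bases before to 10 bases after the start, 5′ to 3′ on the gene's strand, with matches to TGATGNAA or its reverse complement in capitals. Slc1a4 (chr11:20332704-20332813, minus strand) and Slc7a11 (chr3:50443604-50443713, minus strand) hold matches. Slc3a2 (chr19:8713888-8713997, minus strand) is given as a member that fell in the Hdac2 line with none in this stretch. The start used for Slc3a2 lies inside the gene span over which reads were counted, not at its end. Slc7a5, Slc7a3 and Slc1a5, which also fell, had no window, so their promoters were not searched.
Slc1a4: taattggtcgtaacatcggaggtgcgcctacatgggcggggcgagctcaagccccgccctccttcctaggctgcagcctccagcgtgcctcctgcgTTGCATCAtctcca
Slc7a11: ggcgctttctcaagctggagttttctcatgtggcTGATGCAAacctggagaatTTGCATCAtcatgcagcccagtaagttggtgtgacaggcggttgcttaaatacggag
Slc3a2: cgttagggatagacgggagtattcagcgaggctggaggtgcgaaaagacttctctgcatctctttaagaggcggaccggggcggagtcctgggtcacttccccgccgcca
Slc1a4 holds 1 match and Slc7a11 holds 2 matches on opposite strands. A match describes the letters only. The core of the antioxidant response element, TGANNNNGC on either strand, was found in 34 of 62 member windows (54.8%) and in 41.34% of all windows.

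The families differed in how many members were measurable. All 3 Slc43 genes passed the filter on low counts, as did 6 of 7 Slc1, 8 of 11 Slc38, 8 of 15 Slc7, 5 of 17 Slc6, 2 of 4 Slc36 and 1 of 2 Slc3 genes. Another 12 members had no count in any library, namely Slc36a3, Slc6a2, Slc6a5, Slc6a7, Slc6a11, Slc6a12, Slc6a18, Slc6a19, Slc7a9, Slc7a10, Slc7a12 and Slc7a15. For these a count of 0 allows up to 0.15 to 0.287 CPM in a library. The remaining 14 had at least 1 count and failed the filter, and 10 of them held no more than 11 counts over all libraries. Slc7a4, a relative of the cationic carriers, reached the highest count of any member that failed, 21 in the second 4OHT library of the Hdac1 line, and had 10 and 6 counts in the EtOH libraries of the Hdac2 line and 1 and 1 with 4OHT. Slc3a1, the heavy chain of the kidney cystine carrier, had 0 to 4 counts per library, so Slc3a2 was the heavy chain gene that could be tested.

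Levels between genes were compared per kilobase of exon. Slc38a4 stood highest, with a mean of 92.8 CPM per kilobase over the 8 libraries and a range of 73.1 to 116.6. Next came Slc38a10 at 69.3 (48.5 to 89.7), Slc6a6 at 60.2 (34.9 to 105), Slc3a2 at 47.1 (29.7 to 78.7), Slc7a5 at 39.7 (20.5 to 72.5) and Slc38a2 at 36.5 (22.4 to 51.2). The ranges of these neighbours overlap. The lowest tested members were Slc6a17 at 0.0686 and Slc1a1 at 0.0640 CPM per kilobase. Slc38 genes made up 41.6 to 52.4% of the summed CPM per kilobase of all members.

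**Figure D1:**
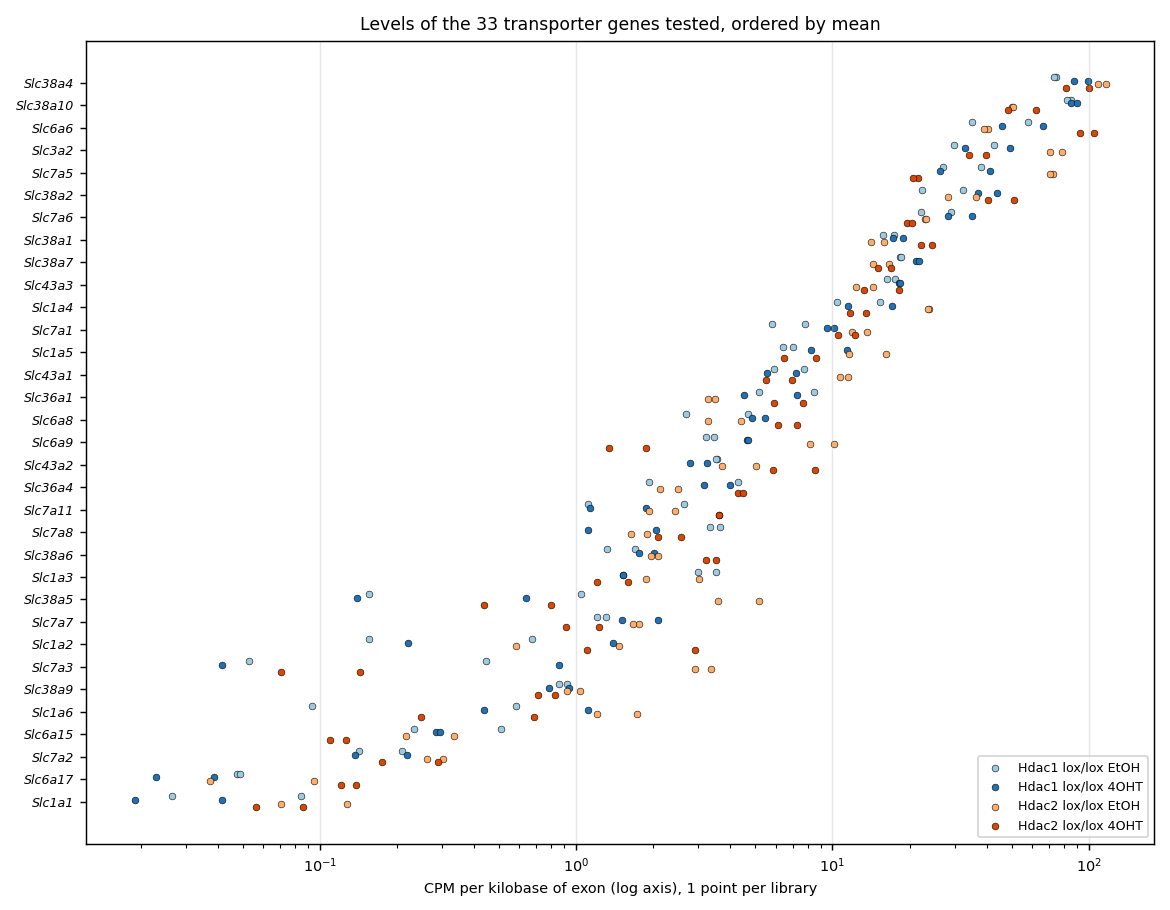
CPM per kilobase of exon (log axis) of the 33 tested transporter genes, ordered by their mean, with 1 point per library coloured by group. Slc38a4 leads with a mean of 92.8, and Slc1a1 is lowest at 0.0640.

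In the Hdac2 line, 4OHT libraries held less RNA of the glycine carrier gene Slc6a9, of the heavy chain gene Slc3a2 and its light chain Slc7a5, and of the carriers Slc7a3, Slc1a4, Slc1a5, Slc38a5 and Slc43a1. They held more of the taurine carrier gene Slc6a6 and of Slc38a1, Slc38a6, Slc36a1 and Slc43a2. These 13 of the 33 tested members passed an adjusted p of 0.05 in edgeR's quasi-likelihood test, 5 higher and 8 lower, and 18 had an unadjusted p below 0.05, as did 7030 of all 14179 genes. Of all genes tested, 36.1% were called, 18.9% higher and 17.2% lower, so the members' share of 39.4% was near the background. The median log2 fold change was -0.20 over the tested members and -0.02 over all genes. The libraries of the 2 groups did not overlap for 26 of 33 members (78.8%), against 78.3% of all genes. In bulk samples such as these, fewer cells of a type and less RNA per cell cannot be told apart.

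These calls rest on all 4 libraries of the Hdac2 line, and their p-values share an estimate of the spread with the Hdac1 line. With 1 library left out, the fit called 1 member without EtOH replicate 1, 0 without EtOH replicate 2, 2 without 4OHT replicate 1 and 1 without 4OHT replicate 2, where the genes called in all were 109, 0, 834 and 88 in place of 5113. All 13 kept their direction in each of these fits, and without EtOH replicate 2, 13 members had an unadjusted p below 0.05 in edgeR's test. Leaving out an Hdac1-line library gave 12 to 18 called members.

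**Figure D2:**
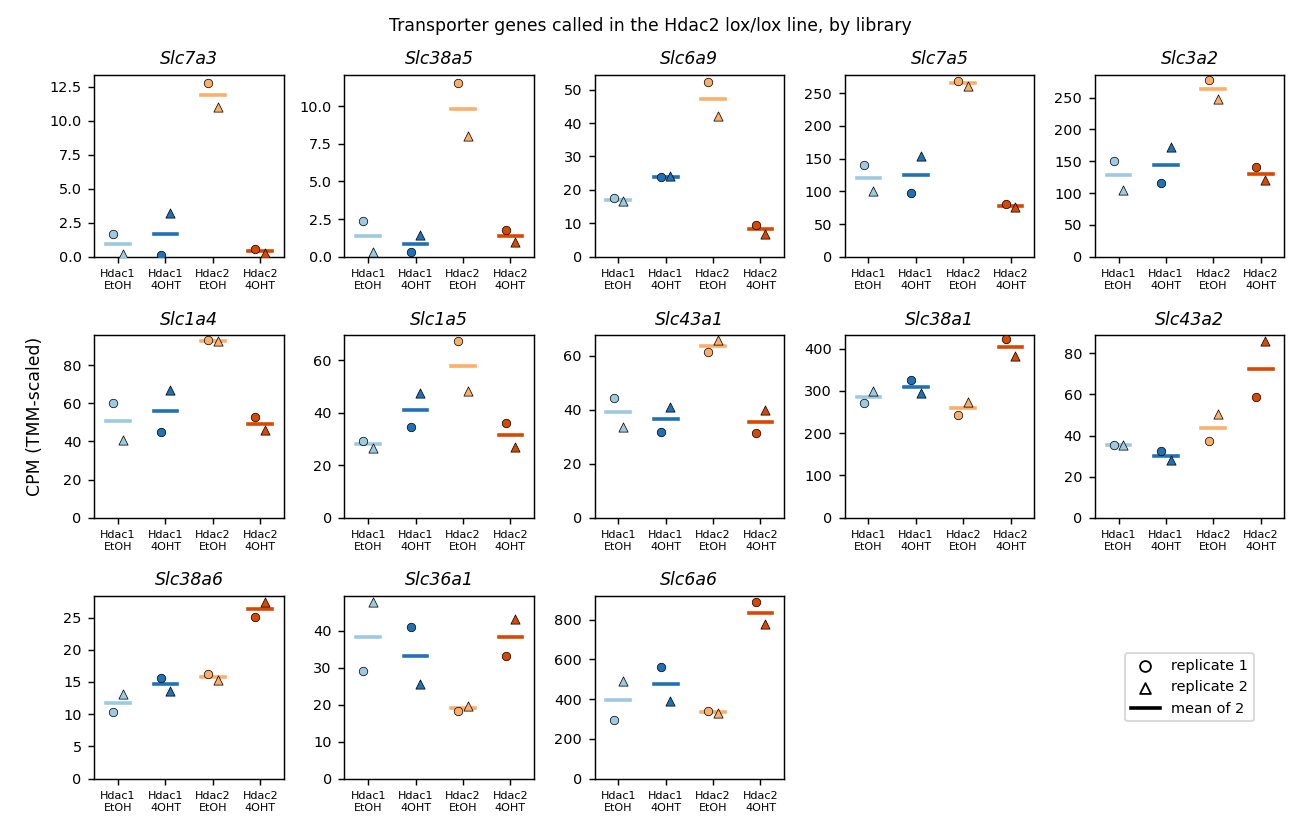
CPM of the 13 transporter genes called in the Hdac2 lox/lox line, in each library (circle, replicate 1; triangle, replicate 2; bar, mean of 2), for the 4 groups. In each panel both 4OHT libraries of the Hdac2 line lie on 1 side of both EtOH libraries, as for 78.3% of all genes tested. Slc6a9 had 52.2 and 42.2 CPM with EtOH and 9.62 and 6.93 with 4OHT.

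The heavy chain gene Slc3a2 (chr19:8706882-8723369, minus strand) encodes the partner that brings Slc7 light chains to the membrane. Its CPM was 278 and 248 in the EtOH libraries of the Hdac2 line and 140 and 120 with 4OHT, and 151 and 105 with EtOH and 116 and 173 with 4OHT in the Hdac1 line. In the Hdac2 line the groups did not overlap, as for 78.3% of all genes tested. Slc3a2 fell there by 1.01 ± 0.25 on the log2 scale (SE, adjusted p = 0.0214 by edgeR). Its light chain Slc7a5 (chr8:121881150-121907694, minus strand), which exchanges intracellular glutamine for leucine and other large neutral amino acids, had 269 and 261 CPM with EtOH and 80.3 and 76.2 with 4OHT. Both 4OHT libraries lay below all 6 others, since the Hdac1 line had 141 and 99.8 with EtOH and 97.7 and 153 with 4OHT. Slc7a5 fell by 1.76 ± 0.25 (adjusted p = 0.00862).

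The other light chains were not called. Slc7a6, a carrier that exchanges cationic for neutral amino acids, had 105 and 106 CPM with EtOH and 89.6 and 93.7 with 4OHT (log2 fold change -0.20 ± 0.18, adjusted p = 0.398). The related Slc7a7 had 5.83 and 5.54 with EtOH and 3.03 and 4.09 with 4OHT (-0.68 ± 0.29, adjusted p = 0.0987). It overlaps Oxa1l on the opposite strand, which had 71.1 and 73.3 CPM with EtOH and 54.8 and 51.7 with 4OHT, and no source used here gives the strand setting of the counting. The cystine and glutamate exchanger gene Slc7a11, whose product supplies cystine for glutathione, had 33.9 and 26.8 CPM with EtOH and 50.3 and 50.3 with 4OHT (0.73 ± 0.40, adjusted p = 0.179). Slc7a7 and Slc7a11 are, with Slc1a4, the members in whose promoter windows TGATGNAA was found. Slc1a4 fell, and a part of the matches in these values was not tested.

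The makeup of the light chains differed with Slc7a5. Per kilobase, Slc7a5 made up 71.5 and 71.0% of the 5 light chains in the EtOH libraries of the Hdac2 line and 45.2 and 42.4% with 4OHT. In the Hdac1 line its share was 57.4 and 42.6% with EtOH and 39.5 and 55.9% with 4OHT, so those groups overlap. The ratio of Slc7a5 to Slc3a2 per kilobase was 0.922 and 1.0 with EtOH and 0.544 and 0.605 with 4OHT in the Hdac2 line, and 0.801 to 0.906 over the 4 Hdac1-line libraries. These shares and ratios are descriptions and were not tested.

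**Figure D3:**
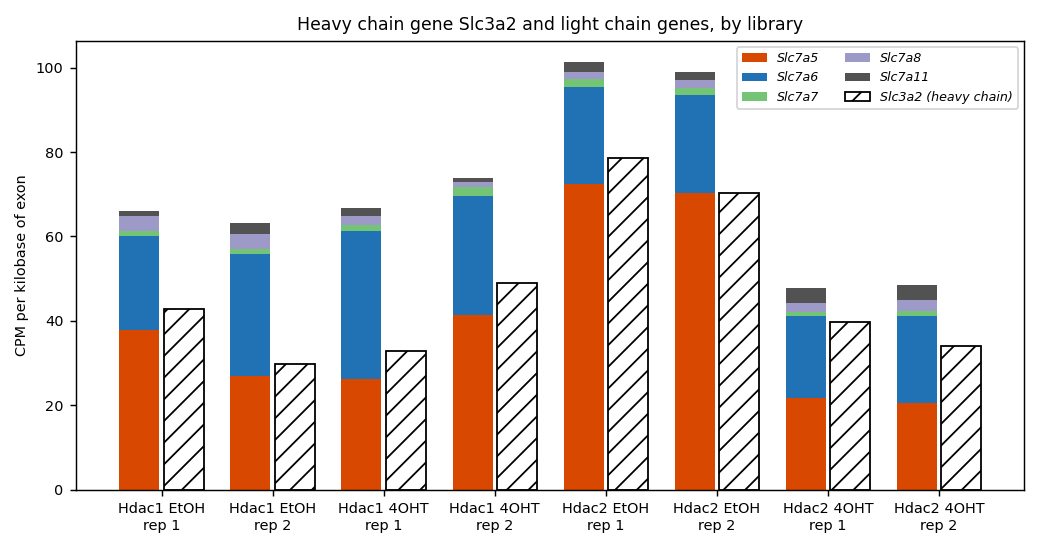
CPM per kilobase of exon of the 5 tested light chain genes (stacked bars) and of the heavy chain gene Slc3a2 (hatched bars) in each of the 8 libraries. The summed light chains reach 101.3 and 98.95 in the EtOH libraries of the Hdac2 line and 47.9 and 48.5 with 4OHT.

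Among the cationic amino acid carriers, which bring in arginine and lysine, Slc7a3 fell and the more abundant Slc7a1 was not called. Slc7a3 (chrX:101079210-101086020, minus strand) had 12.77 and 10.98 CPM in the EtOH libraries of the Hdac2 line and 0.543 and 0.267 with 4OHT, which are 197, 115, 7 and 3 counts. In the Hdac1 line it had 1.69 and 0.20 CPM with EtOH and 0.157 and 3.25 with 4OHT, a spread within groups as wide as between them. It fell by 4.82 ± 1.24 in the Hdac2 line (adjusted p = 0.0232, 95% interval -7.69 to -1.96), and with no filter on low counts its adjusted p was 0.111. Slc7a1 had 158 and 137 CPM with EtOH and 141 and 122 with 4OHT there (-0.17 ± 0.19, adjusted p = 0.499), and the groups overlap. Slc7a3 made up 19.5 and 19.2% of the 3 tested cationic carriers per kilobase with EtOH and 1.135 and 0.652% with 4OHT.

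Of the Slc1 family, both neutral amino acid carriers fell in the Hdac2 line and the glutamate carriers were not called. Slc1a4 (chr11:20302180-20332713, minus strand), a carrier of serine, alanine and cysteine, had 93.1 and 92.9 CPM with EtOH and 53.0 and 45.9 with 4OHT, and 60.1 and 41.0 with EtOH and 45.1 and 67.1 with 4OHT in the Hdac1 line. It fell by 0.91 ± 0.25 (adjusted p = 0.028) in the Hdac2 line. Slc1a5 (chr7:16781346-16798274, plus strand), a glutamine exchanger, had 67.4 and 48.2 CPM with EtOH and 36.01 and 27.0 with 4OHT, and 29.2 and 26.7 with EtOH and 34.4 and 47.7 with 4OHT in the Hdac1 line. It fell by 0.88 ± 0.25 (adjusted p = 0.0304 by edgeR) in the Hdac2 line. For both genes the groups of that line did not overlap, as for 78.3% of all genes tested. The glutamate carrier gene Slc1a3 had 16.01 and 25.7 CPM with EtOH and 13.7 and 10.3 with 4OHT in the Hdac2 line (-0.79 ± 0.27, adjusted p = 0.051).

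The 2 called Slc6 genes went in opposite directions. Slc6a9 (chr4:117834506-117875198, plus strand), the glycine carrier, had 52.2 and 42.2 CPM in the EtOH libraries of the Hdac2 line and 9.62 and 6.93 with 4OHT. Both 4OHT libraries were below all 6 others, as the Hdac1 line had 17.7 and 16.6 with EtOH and 23.9 and 24.1 with 4OHT. It fell by 2.51 ± 0.22 in the Hdac2 line (adjusted p = 0.00413, 95% interval -3.014 to -2.004), the smallest adjusted p of the tested members. Without EtOH replicate 2 of the Hdac2 line the log2 fold change was -2.65, with an adjusted p of 0.0638 by edgeR. B4galt2, which overlaps Slc6a9 on the opposite strand, had 33.4 and 34.5 CPM with EtOH and 25.996 and 30.6 with 4OHT (-0.26, adjusted p = 0.219).

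Slc6a6 (chr6:91684067-91759063, plus strand), the taurine carrier, had 341 and 330 CPM with EtOH and 888 and 779 with 4OHT in the Hdac2 line. The Hdac1 line had 295 and 490 with EtOH and 562 and 388 with 4OHT, groups that overlap. Slc6a6 rose by 1.31 ± 0.28 (adjusted p = 0.0148) in the Hdac2 line, and Slc6 genes together went from 9.86 and 9.32% of the summed CPM per kilobase of all members with EtOH to 21.96 and 20.5% with 4OHT. The creatine carrier gene Slc6a8 had 23.0 and 17.1 CPM with EtOH and 37.9 and 32.1 with 4OHT (0.80 ± 0.29, adjusted p = 0.0603).

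The proton-coupled carriers of the Slc36 family sit largely on lysosomes and endosomes. Slc36a1 (chr11:55204350-55236330, plus strand) had 18.4 and 19.7 CPM with EtOH and 33.2 and 43.2 with 4OHT in the Hdac2 line, and 29.0 and 47.9 with EtOH and 41.1 and 25.5 with 4OHT in the Hdac1 line. It rose by 1.00 ± 0.31 (adjusted p = 0.0406) in the Hdac2 line, and with limma-voom its adjusted p was 0.0519. Slc36a4 had 13.9 and 16.3 CPM with EtOH and 28.0 and 29.4 with 4OHT (0.93 ± 0.35, adjusted p = 0.0704). For both genes the Hdac2-line groups did not overlap, as for 78.3% of all genes tested.

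The Slc38 family had 1 gene that fell and 2 that rose. Slc38a5 (chrX:8271133-8280179, plus strand), a glutamine and glycine carrier that can run in either direction, had 11.5 and 8.02 CPM with EtOH and 1.78 and 0.977 with 4OHT in the Hdac2 line, and 2.35 and 0.35 with EtOH and 0.314 and 1.42 with 4OHT in the Hdac1 line. It fell by 2.81 ± 0.83 (adjusted p = 0.0356) in the Hdac2 line, and with no filter on low counts its adjusted p was 0.0922. Slc38a1 (chr15:96571418-96642913, minus strand), a sodium-coupled glutamine carrier, had 243 and 275 CPM with EtOH and 423 and 383 with 4OHT, and the 4 Hdac1-line libraries lay between 272 and 325. It rose by 0.64 ± 0.16 (adjusted p = 0.0208). Slc38a6 (chr12:73286779-73354049, plus strand) had 16.3 and 15.3 CPM with EtOH and 25.1 and 27.5 with 4OHT and 10.3 to 15.6 in the Hdac1 line, and rose by 0.73 ± 0.20 (adjusted p = 0.0258).

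The 5 other tested Slc38 genes were not called. Slc38a4, the most abundant member per kilobase, had 464 and 497 CPM with EtOH and 427 and 346 with 4OHT (-0.31 ± 0.17, adjusted p = 0.168). Slc38a2, a carrier known to be induced by amino acid shortage, had 322 and 250 with EtOH and 452 and 357 with 4OHT (0.50 ± 0.24, adjusted p = 0.13). Slc38a9, a lysosomal arginine sensor of mTORC1, had 15.4 and 17.3 with EtOH and 11.9 and 13.9 with 4OHT (-0.34 ± 0.20, adjusted p = 0.197).

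The 2 Slc43 carriers of large neutral amino acids also split. Slc43a1 (chr2:84838850-84863594, plus strand) had 61.2 and 65.8 CPM with EtOH and 31.4 and 39.7 with 4OHT in the Hdac2 line, and 31.6 to 44.3 in the Hdac1 line. It fell by 0.84 ± 0.22 (adjusted p = 0.0235). Slc43a2 (chr11:75531694-75577575, plus strand) had 37.4 and 50.3 CPM with EtOH and 58.9 and 85.8 with 4OHT in the Hdac2 line, and 27.8 to 35.6 in the Hdac1 line. It rose by 0.72 ± 0.23 (adjusted p = 0.0428), and was not called when libraries were scaled by upper quartiles (0.59, adjusted p = 0.0734) or by library size alone (0.60, adjusted p = 0.0704). Those scalings moved the median log2 fold change of all genes in this comparison from -0.02 to -0.15 and -0.14. The nucleobase carrier gene Slc43a3 had 55.0 and 64.5 CPM with EtOH and 59.3 and 81.3 with 4OHT (0.23 ± 0.19, adjusted p = 0.342), and its groups overlap.

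**Figure D4:**
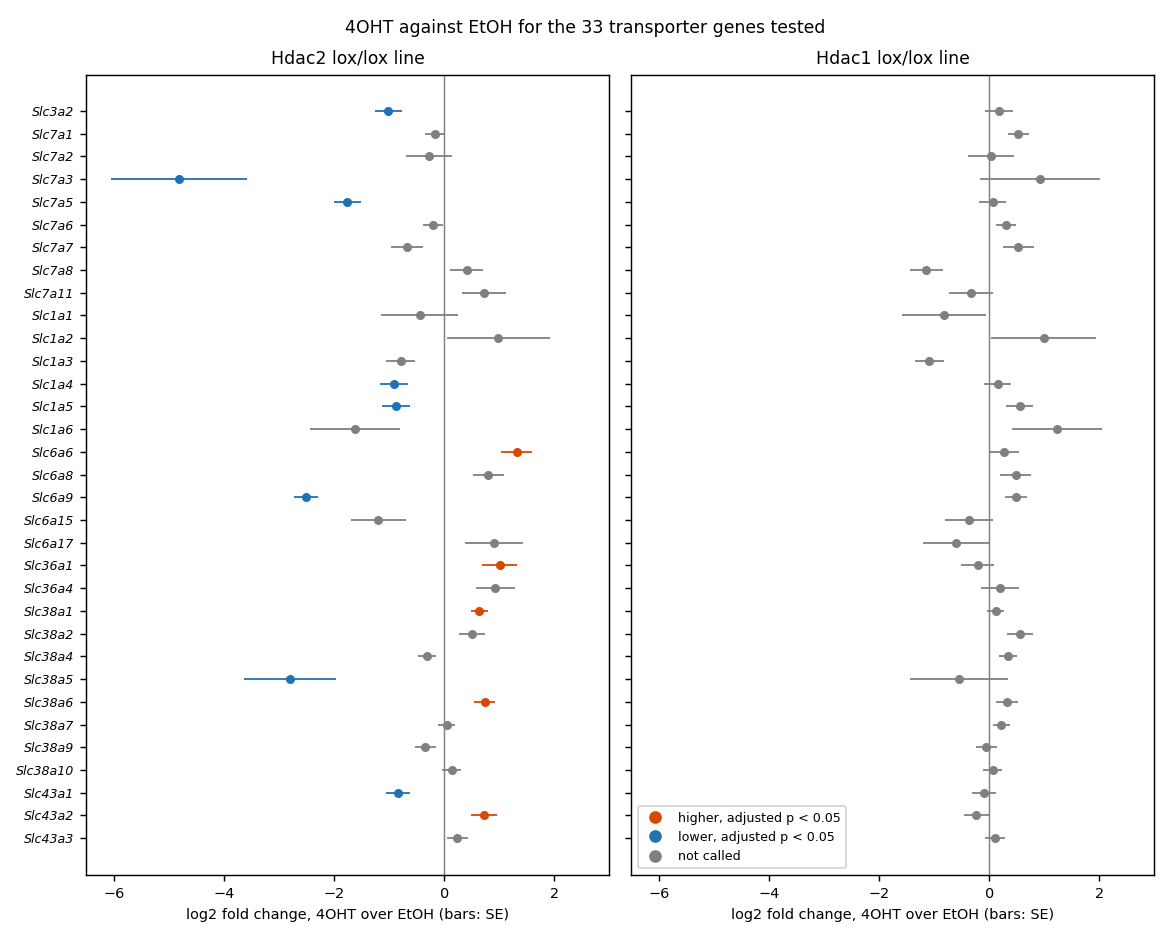
Log2 fold changes of 4OHT over EtOH (points) with their SE (bars) for the 33 tested transporter genes in the Hdac2 line (left) and the Hdac1 line (right), coloured where the adjusted p was below 0.05. In the Hdac2 line 8 genes are coloured as lower and 5 as higher, and in the Hdac1 line none is coloured.

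Markers of the labelled cell type and of others moved in the same comparison. The 12 erythroid markers summed to 2251 and 2231 CPM in the EtOH libraries of the Hdac2 line and 539.5 and 359.1 with 4OHT, and 8 of 12 were called lower. The smooth muscle and mesenchyme markers summed to 2187 and 1535 with EtOH and 6540 and 4333 with 4OHT, with 5 of 9 tested called higher. The endothelial markers summed to 3127 and 3377 with EtOH and 6766 and 8843 with 4OHT, with 7 of 12 called higher. The other sets were at lower levels. The neuronal markers summed to 131.1 and 105.4 with EtOH and 183.5 and 121.7 with 4OHT, with 0 of 6 tested called. The pluripotency markers summed to 31.37 and 21.2 with EtOH and 30.57 and 32.17 with 4OHT, with 1 of 3 tested called lower. Most of this sum was Klf4, with 28.3 and 17.1 with EtOH and 29.6 and 30.5 with 4OHT. The gene called lower was Sox2, with 2.33 and 3.06 with EtOH and 0.854 and 0.889 with 4OHT. The macrophage and myeloid markers summed to 51.1 and 45.3 with EtOH and 64.3 and 52.4 with 4OHT, with 4 of 7 tested called higher and 1 lower. The cardiomyocyte markers summed to 30.8 and 15.95 with EtOH and 24.2 and 32.2 with 4OHT, with 2 of 5 tested called higher and 1 lower. The visceral endoderm markers summed to 3.57 and 2.10 with EtOH and 11.6 and 9.51 with 4OHT, with 2 of 3 tested called higher. Against these counts stand the 36.1% called of all genes. In the Hdac1 line the erythroid sum was 1359 and 652.8 with EtOH and 429.8 and 744.9 with 4OHT. Within each group it was higher in EtOH replicate 1 and 4OHT replicate 2, as were Slc7a5, Slc3a2 and Slc1a4. Slc6a9 instead was nearly equal within each group of that line, with 17.7 and 16.6 CPM with EtOH and 23.9 and 24.1 with 4OHT. The part of these cell types in the carriers' values was not tested.

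In the Hdac1 line no member was called with the libraries grouped as labelled. EtOH and 4OHT libraries of this line resembled each other more than their labelled partners did. This count and the 2 comparisons that follow, which also use the line, hold only if the labels are right, which was not tested. The p-values of the Hdac2 line share an estimate of the spread with these libraries, so its calls also depend on the labels. In the Hdac1 line edgeR's quasi-likelihood test gave 0 of 33 members and 0% of all 14179 genes at an adjusted p of 0.05. There 5 members and 947 genes had an unadjusted p below 0.05. DESeq2 gave 0 members and 32 genes, and limma-voom gave 0 members and 0 genes. The libraries of the groups did not overlap for 14 of 33 members (42.4%), 10 higher and 4 lower, against 31.2% of all genes. The median log2 fold change was 0.15 over the tested members and -0.02 over all genes.

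The 5 members with an unadjusted p below 0.05 there were Slc1a3, Slc7a8, Slc7a1, Slc6a9 and Slc38a2. Slc1a3 had 25.4 and 29.9 CPM with EtOH and 13.0 and 13.0 with 4OHT (log2 fold change -1.09 ± 0.26, adjusted p = 0.712). Slc7a8, a light chain that carries neutral amino acids, had 18.2 and 16.7 with EtOH and 10.3 and 5.58 with 4OHT (-1.15 ± 0.30, adjusted p = 0.712). Slc7a1 had 66.8 and 90.5 with EtOH and 117 and 110 with 4OHT (0.53 ± 0.19, adjusted p = 0.733). Slc6a9 had 17.7 and 16.6 with EtOH and 23.9 and 24.1 with 4OHT (0.49 ± 0.20, adjusted p = 0.733 by edgeR). Slc38a2 had 198 and 286 with EtOH and 388 and 327 with 4OHT (0.56 ± 0.24, adjusted p = 0.737 by edgeR). All 5 genes had groups that did not overlap, as did 31.2% of all genes tested.

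The difference between the lines in the 4OHT effect was called for Slc6a9. Its log2 fold change was -2.51 ± 0.22 in the Hdac2 line and 0.49 ± 0.20 in the Hdac1 line (adjusted p = 0.733), and the difference was -3.00 ± 0.30 (adjusted p = 0.0335 by edgeR). It was 1 of 4 genes called among 14179 (0.0282%), of which 0.0141% were higher and 0.0141% lower. The 3 other genes, Sprr2b, Hand2 and Car4, were named after their values were seen and are no carriers of these families. At an unadjusted p below 0.05 there were 16 members of 33 and 3973 genes of 14179. Slc7a5 had -1.76 and 0.06 in the 2 lines and a difference of -1.82 ± 0.35 (adjusted p = 0.0716), and for Slc7a3 the difference was -5.75 ± 1.65 (adjusted p = 0.097).

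The call for the difference depended on the libraries and the tool. The adjusted p of Slc6a9 was 0.0746 without Hdac1-line 4OHT replicate 1, 0.135 without 4OHT replicate 2 of that line, 0.193 and 0.189 without EtOH replicate 1 and 2 of the Hdac2 line, and 0.0734 and 0.204 without 4OHT replicate 1 and 2 of the Hdac2 line. The difference itself stayed between -3.25 and -2.78 over the alternatives. With limma-voom its adjusted p was 0.0587, and 0 members and 1 gene in all were called. With DESeq2 6 members and 1781 genes were called, and without EtOH replicate 1 of the Hdac1 line 12 members and 3773 genes.

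The lines already differed without 4OHT. In the EtOH libraries, Slc6a9, Slc7a5, Slc3a2, Slc1a5 and the cationic carrier gene Slc7a1 were higher in the Hdac2 line than in the Hdac1 line, and Slc38a10 was lower. These were 6 of 33 tested members (18.2%), against 9.33% of all genes, of which 2.91% were higher and 6.42% lower, and 14 members and 4686 genes had an unadjusted p below 0.05. The median log2 difference was 0.43 over the members and -0.01 over all genes. This comparison shares the EtOH libraries of the Hdac2 line with the 4OHT comparison and with the difference above, so they are not independent.

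With the values in each library given above, Slc6a9 differed by 1.46 ± 0.21 on the log2 scale (adjusted p = 0.017), Slc7a5 by 1.139 ± 0.25 (adjusted p = 0.0358), Slc1a5 by 1.05 ± 0.25 (adjusted p = 0.042) and Slc3a2 by 1.04 ± 0.25 (adjusted p = 0.0446). Slc7a1 (chr5:148327410-148399904, minus strand) had 158 and 137 CPM in the Hdac2 line and 66.8 and 90.5 in the Hdac1 line, a difference of 0.91 ± 0.19 (adjusted p = 0.0335). Slc38a10 (chr11:120103960-120151346, minus strand), a less studied relative of the glutamine carriers, had 323 and 325 CPM in the Hdac2 line and 550 and 527 in the Hdac1 line, a difference of -0.73 ± 0.17 (adjusted p = 0.0409). Its 4OHT libraries kept the same order, with 311 and 399 against 546 and 576 CPM.

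These counts also moved with single libraries. Without EtOH replicate 1 of the Hdac1 line 13 members and 3896 genes were called, and without its EtOH replicate 2 there were 1 member and 172 genes. Without EtOH replicate 1 or 2 of the Hdac2 line edgeR called 0 members, with 11 and 13 at an unadjusted p below 0.05, and 1 and 4 genes. Without 4OHT replicate 1 or 2 of the Hdac2 line there was 1 member, with 171 and 168 genes. DESeq2 called 13 members and 2801 genes, and limma-voom 8 members and 1197 genes. With upper quartile scaling the called members were 6 higher and 0 lower, and with library size alone 4 higher and 1 lower, where all genes split 315 higher and 1242 lower in place of 412 and 911. The erythroid markers summed to 2251 and 2231 CPM in the EtOH libraries of the Hdac2 line and to 1359 and 652.8 in those of the Hdac1 line, and their part in the differences was not tested.

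Genes that work with the carriers were followed in 6 lists, which were picked with earlier results of these data known, so their counts are descriptions. The shares of all genes called in the Hdac2 line, 18.9% higher and 17.2% lower, are the background for each list. Of 31 tested genes of the amino acid response linked to ATF4, 2 were higher and 15 lower in the Hdac2 line (54.8% called), with a median log2 fold change of -1.01. The serine synthesis gene Psat1 had 748 and 675 CPM with EtOH and 121 and 105 with 4OHT and fell by 2.66 ± 0.38 (adjusted p = 0.00862). Asns, which makes asparagine, had 217 and 202 with EtOH and 48.0 and 45.3 with 4OHT and fell by 2.166 ± 0.35 (adjusted p = 0.00893). Shmt2, a mitochondrial enzyme that converts serine to glycine, had 291 and 282 with EtOH and 70.8 and 71.7 with 4OHT and fell by 2.01 ± 0.27 (adjusted p = 0.0081). Cth, which makes cysteine, fell by 2.64 ± 0.44 (adjusted p = 0.00937), from 17.5 and 12.8 to 2.87 and 1.95 CPM. Atf4 itself had 448 and 334 CPM with EtOH and 181 and 206 with 4OHT (-1.01 ± 0.37, adjusted p = 0.0621). The 2 higher genes were the stress kinases Eif2ak2 and Eif2ak3.

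In the Hdac1 line the groups overlapped for Psat1 and Asns. Psat1 had 416 and 196 CPM with EtOH and 219 and 360 with 4OHT, and Asns had 119 and 64.7 with EtOH and 65.3 and 116 with 4OHT. Both were higher in EtOH replicate 1 and 4OHT replicate 2, as were Slc7a5 and Slc3a2. No gene of the 6 lists was called in that line, as no gene was in all. In the EtOH comparison 8 of the 31 amino acid response genes were called, 7 of them higher in the Hdac2 line (25.8%, against 9.33% of all genes, 2.91% higher and 6.42% lower).

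Enzymes that use glutamine, glutamate, proline, glycine and branched-chain amino acids were 1 higher and 11 lower of 26 tested in the Hdac2 line (46.2% called), with a median of -0.68. Bcat1, the cytosolic transaminase of branched-chain amino acids, had 94.4 and 61.4 CPM with EtOH and 22.04 and 14.1 with 4OHT and fell by 2.11 ± 0.33 (adjusted p = 0.00868). In the Hdac1 line Bcat1 had 24.3 and 17.4 CPM with EtOH and 47.9 and 65.9 with 4OHT. It was not called there (log2 fold change 1.45 ± 0.32, adjusted p = 0.712 by edgeR). Those groups did not overlap, as for 31.2% of all genes tested. The difference between the lines was -3.55 ± 0.45 (adjusted p = 0.0616). In the Hdac2 line Gcsh, a subunit of the glycine cleavage system, had 205 and 222 with EtOH and 88.9 and 70.6 with 4OHT. It fell by 1.42 ± 0.27 (adjusted p = 0.012).

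Of the genes of amino acid sensing by mTORC1, 7 were higher and 7 lower of 36 tested, with a median of -0.15, and the 38.9% called was near the 36.1% of all genes. The GTPase gene Rragd had 7.71 and 12.6 CPM with EtOH and 32.0 and 31.2 with 4OHT and rose by 1.65 ± 0.29 (adjusted p = 0.0103). Gatsl2 of the same list had 5.96 and 7.35 with EtOH and 20.1 and 22.4 with 4OHT and rose by 1.68 ± 0.32 (adjusted p = 0.0123). Kptn, a subunit of a complex that restrains the pathway, had 10.4 and 12.7 with EtOH and 3.802 and 3.73 with 4OHT and fell by 1.61 ± 0.37 (adjusted p = 0.0175). Of carriers from other families, 3 were higher and 5 lower of 18 tested (44.4% called), with a median of -0.07, and Slc16a10, which lets aromatic amino acids out of cells, had 35.97 and 46.4 CPM with EtOH and 16.3 and 14.8 with 4OHT (-1.40 ± 0.26, adjusted p = 0.0116).

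Proteins that accompany or steer the carriers were 3 higher and 1 lower of 10 tested, again a share near that of all genes. Itgb1, the integrin chain that binds the Slc3a2 heavy chain, had 852 and 824 CPM with EtOH and 1767 and 1735 with 4OHT and rose by 1.06 ± 0.23 (adjusted p = 0.0151), while Slc3a2 fell. Cd44, known to associate with the cystine exchanger, had 166 and 132 with EtOH and 272 and 278 with 4OHT and rose by 0.88 ± 0.22 (adjusted p = 0.0214). Of 12 tested genes of glutathione synthesis and cystine use, 2 were called (16.7%), both higher, and 1 of them, the thioredoxin reductase gene Txnrd1, had 403 and 360 CPM with EtOH and 696 and 651 with 4OHT (0.82 ± 0.22, adjusted p = 0.0267).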

How the data were processed

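The authors deposited 1 table of raw read counts per gene for the 8 libraries, whole numbers that were not normalized. Per the labels' protocols, 200 ng of total RNA went into a strand-specific Agilent kit with 15 amplification cycles. Bowtie2 2.2.1 and build mm10 stand in the submitters' processing notes, beside edgeR 3.8.5, R 3.1.0, SAMtools 0.1.19 and bcl2fastq 2.17.1.14, with no role for each. No source used here gives the strand setting of the counting. Gene positions are those of the count table, and exon lengths are unions of GENCODE M21 exons, in which all 59 members were found by identifier. Of these, 37 had the same start, end and strand there as in the count table. For the others the length may differ from that of the gene model counted, which limits the values per kilobase.

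Genes were filtered with filterByExpr by group (minimum count 10), which left 14179. All 8 libraries were fitted as 4 groups in 1 model with TMM factors and edgeR's robust quasi-likelihood test (edgeR 4.0.16, R 4.3.3), and p-values were adjusted by Benjamini-Hochberg over all genes tested at 0.05. CPM values are TMM-scaled, and intervals are 95%. Every member called in a comparison was named, with Slc6a9. DESeq2 1.42.0, limma-voom (limma 3.58.1), other scalings and filters, a replicate block, the compared libraries alone and each library left out were the alternatives. The name rule for members uses no measured value, but these families and the lists were picked with earlier results of these data known. Same-numbered libraries did not deviate together in every pair of groups (correlation -0.688 in the Hdac1 line and 0.264 in the Hdac2 line), so numbers were not taken to pair libraries. At this depth 3 counts correspond to 0.15 to 0.287 CPM; such limits cover counting error only.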

Additional observations from a re-analysis of the deposited data

Results flagged for a closer look

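The 4OHT effect on Slc6a9, the glycine carrier gene, differed between the lines by a test of the difference itself. The families, that of Slc6a9 included, were picked with earlier results of these data known. The Hdac2 line minus the Hdac1 line gave a log2 difference of -3.00 ± 0.30 (adjusted p = 0.0335, edgeR's quasi-likelihood test). CPM went from 52.2 and 42.2 to 9.62 and 6.93 in the Hdac2 line and from 17.7 and 16.6 to 23.9 and 24.1 in the Hdac1 line. The adjusted p was 0.0734 to 0.204 when any 1 of 6 libraries was left out, namely the 4OHT libraries of the Hdac1 line and all 4 of the Hdac2 line.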

How the results depend on the processing

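Scaling, robust estimation and the CPM filter left each count of called members within 1.5 times its value. Without a filter on low counts, 6 members were called for the difference between the lines and 10 between the EtOH libraries, and with DESeq2 there were 6 and 13. limma-voom called 0 for the difference, with 16 members at an unadjusted p below 0.05, and a fit of the compared libraries alone called 1 between the EtOH libraries. With 1 library left out, called members ranged from 0 to 18 in the Hdac2 line, 0 to 0 in the Hdac1 line, 0 to 12 for the difference and 0 to 13 between the EtOH libraries. Each left-out library of a compared group leaves that group with 1 library, which is assumed to vary like the other groups. The cause of the other changes was not tested. The counts for single members below include results not called in edgeR's test of all 8 libraries, among them all those of the Hdac1 line. Such a result is kept by staying uncalled, so these counts do not measure how often a call was kept. For single members, 437 results kept their side of the threshold, 12 passed it and 25 no longer did under settings other than a left-out library, against 275, 8 and 85 with a library left out, and none changed direction after a call.

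With the replicate number as a block, 7 members were called in the Hdac2 line, 0 in the Hdac1 line, 0 for the difference and 1 between the EtOH libraries; the calls lost in the Hdac2 line were Slc1a4, Slc1a5, Slc36a1, Slc38a5, Slc38a6 and Slc43a2. The numbers are shared labels and are not known to pair libraries. A crossed pairing of the Hdac1 line, chosen after seeing the data, called 6 members and 1003 genes there. Depth limits the members near the filter, such as Slc1a1 and Slc6a17.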
